A study of Mus musculus with 8 samples.

Results

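A set of 10 transcription factors of mesoderm and heart development were followed in mouse embryonic stem cells (ESCs) before and after differentiation with retinoic acid (RA). They were chosen by symbol as Hand1, Hand2, Tbx5, Tbx20, Isl1, Mef2c, Nkx2-5, Foxf2, Osr1 and T (Brachyury), which are 10 of the 24421 genes counted in every library. The cells were of the R1 line, a pluripotent mouse ESC line, so the 2 replicates of a state are cultures of 1 line. Undiff cells are described in the study's methods as maintained in ESC growth medium with leukaemia inhibitory factor (LIF), whereas the sample labels describe them as 4 day embryoid bodies in growth medium. Day4 cells had formed embryoid bodies for 4 days without LIF and were then treated for 4 days with RA. The dose is 2 µM in the series design and in the methods, while the labels give the same number in mM. Removal of LIF and addition of RA changed together between the states and cannot be told apart, and the methods and the labels differ on whether aggregation changed too. Oxford Nanopore Technologies (ONT) long-read libraries were made from polyadenylated RNA of each state with both the Direct RNA kit, in which the native RNA strand is read, and the cDNA kit, in which the RNA is copied and amplified beforehand. Each of the 4 combinations of platform and state had 2 libraries, 8 in all.

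The heart arises from lateral plate mesoderm. T marks the primitive streak, from which mesoderm leaves, and Hand1, Hand2, Tbx5, Tbx20, Isl1, Mef2c and Nkx2-5 form the core of the regulatory network of the heart fields. Hand2 and Tbx5 also act in limb mesoderm, Foxf2 in mesenchyme around the gut and Osr1 in intermediate and lateral mesoderm. Several of them have other sites of action, such as Isl1 in motor neurons, Mef2c in endothelium and muscle, and Hand1 in trophoblast.

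Direct RNA libraries had between 283461 and 907489 reads on genes, and cDNA libraries had between 948657 and 2088592. A count of 0 allows up to 3 reads, which came to between 1.44 and 10.6 counts per 1000000 reads on genes (CPM) in a single library. In Undiff the 10 factors held 3 and 15 reads in total with Direct RNA and 4 and 9 with cDNA. At Day4 they held 89 and 147 reads with Direct RNA and 115 and 253 with cDNA. The summed level of the 10 factors was thus between 4.22 and 16.5 CPM in the Undiff libraries and between 87.2 and 314.0 CPM in the Day4 libraries. Of the Day4 reads, Hand2 alone contributed 79.8% and 64.6% with Direct RNA and 47.8% and 31.6% with cDNA. The label of the Undiff cells was checked with 8 pluripotency genes, whose summed level was between 10656 and 23522 CPM in Undiff and between 85.0 and 923 CPM at Day4. All 8 of them were called lower at Day4 on both platforms by DESeq2 and edgeR. In DESeq2, 5 were called without Direct RNA Undiff replicate 2, and 3 and 2 without cDNA Undiff replicate 1 or 2.

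**Figure D1:**
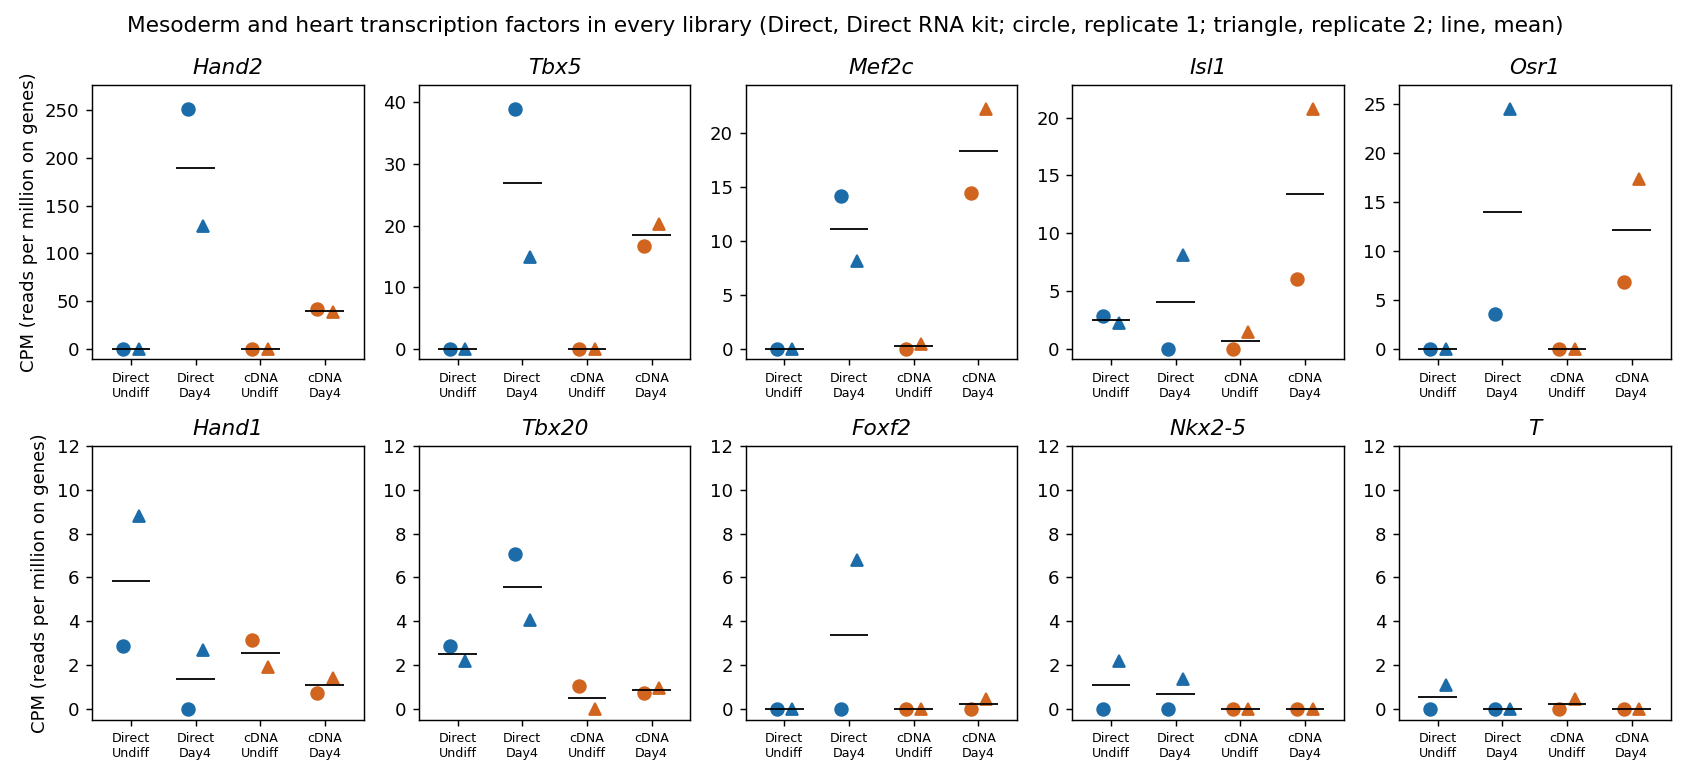
Level of each factor in CPM in every library, by platform and state, with each panel on its own linear axis. Circles are replicate 1, triangles replicate 2 and lines the mean of the 2 libraries; Hand2, Tbx5, Mef2c and Osr1 had their Day4 libraries above their Undiff libraries on both platforms.

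Hand2, a basic helix-loop-helix factor of the right ventricle, limb bud and sympathetic neurons, showed the largest log2 fold change of the 10 on both platforms in the main DESeq2 fit. With replicate number added to that fit it was 1.66 with Direct RNA and 1.74 with cDNA, below Tbx5 (3.69 and 4.60), and was not called. In edgeR the same addition gave 9.49 and 8.85 for Hand2. The gene (ENSMUSG00000038193.4) lies on the forward strand at chr8:57320983-57324633 of GRCm38, the assembly also named mm10, with 2 exons. No Hand2 read was seen in the 4 Undiff libraries. At Day4 it had 71 and 95 reads with Direct RNA, which were 250.5 and 129 CPM, and 55 and 80 reads with cDNA, which were 41.7 and 38.5 CPM. All Day4 libraries therefore lay above all Undiff libraries, and the Day4 mean was 190 ± 86.0 CPM (SD, n = 2) with Direct RNA and 40.1 ± 2.27 CPM (SD, n = 2) with cDNA. Against 3 reads over the pooled Undiff libraries, Hand2 was at least 68.1-fold higher at Day4 with Direct RNA and at least 40.3-fold higher with cDNA. The shrunken log2 fold change of DESeq2 was 7.18 ± 1.09 (SE; adjusted p = 4.2e-09) with Direct RNA and 6.29 ± 1.19 (SE; adjusted p = 5.8e-06) with cDNA. With all libraries thinned to the depth of the smallest, the cDNA call was lost (3.71, adjusted p = 0.124, medians of 10 draws). These are bulk samples, in which more cells that express a gene and more RNA per cell cannot be told apart.

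The sequence upstream of the start site is shown for Hand2, as the factor with the largest change in the main DESeq2 fit, for Isl1, whose call depended on the tool and the filter, and for T, which had no read at Day4. RefSeq promoter sequences (GRCm38.p6) were matched for 7 of the 10 factors, and the stretches below lie at chr8:57320733-57320982 on the forward strand, chr13:116309690-116309938 on the reverse strand and chr17:8434173-8434422 on the forward strand. They run 5′ to 3′ and end at the base before the first exon. Capitals mark GATAA, the core bound by GATA factors, or TTATC where the match is on the other strand.
Hand2: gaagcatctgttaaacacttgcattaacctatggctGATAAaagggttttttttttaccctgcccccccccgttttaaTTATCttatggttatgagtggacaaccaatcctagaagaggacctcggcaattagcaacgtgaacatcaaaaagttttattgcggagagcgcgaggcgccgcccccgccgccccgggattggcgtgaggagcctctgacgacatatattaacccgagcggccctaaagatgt
Isl1: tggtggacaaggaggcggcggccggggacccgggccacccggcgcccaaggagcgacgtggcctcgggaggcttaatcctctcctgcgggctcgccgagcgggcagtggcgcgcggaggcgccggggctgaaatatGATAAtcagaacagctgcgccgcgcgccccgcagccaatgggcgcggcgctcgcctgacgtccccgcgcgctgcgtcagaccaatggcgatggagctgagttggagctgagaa
T: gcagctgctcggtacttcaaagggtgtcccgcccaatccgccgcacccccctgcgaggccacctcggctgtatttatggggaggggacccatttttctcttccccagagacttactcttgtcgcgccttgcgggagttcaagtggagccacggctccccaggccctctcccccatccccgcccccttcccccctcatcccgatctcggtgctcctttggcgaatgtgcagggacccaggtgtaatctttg
GATAA was searched on both strands and was found in 22.6% of 32851 promoter stretches of 250 bases. The Hand2 stretch held 2 matches, which begin 214 and 172 bases upstream of the start site, the Isl1 stretch held 1 at 114 bases, and the T stretch held none. Of the others matched, the second of 3 Mef2c promoters held 2, and the stretches of Tbx20, Foxf2 and Nkx2-5 held none. AGGTCA, the half-site of RA receptors, was found in 14.0% of all stretches and in none of the 3 printed. It had 1 match in the second Mef2c promoter and 2 in the third. The number of CpG dinucleotides was 15 for Hand2, 33 for Isl1 and 14 for T, against a median of 6 over all stretches. The Hand2 stretch also overlaps an exon of Hand2os1, a long non-coding RNA gene on the opposite strand.

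Hand2os1 (chr8:57281117-57324233, reverse strand, named 5033428I22Rik in the counts) shares 461 exon bases with Hand2, or 19.6% of the Hand2 exon length. It too had no read in the 4 Undiff libraries. At Day4 it had 4 and 6 reads with Direct RNA, which was counted by strand, and 44 and 40 reads with cDNA, for which the use of strand in counting is not given in the sources used here. For every 100 Hand2 reads there were 5.63 and 6.32 reads on 5033428I22Rik with Direct RNA and 80.0 and 50.0 with cDNA. The cDNA ratios were both above the Direct RNA ratios. With DESeq2, 5033428I22Rik was called higher at Day4 with cDNA (log2 fold change 5.70, adjusted p = 0.00011) and not with Direct RNA (3.0, adjusted p = 0.179), and the difference between these changes was not called (interaction adjusted p = 1.00). Between platforms, edgeR called 5033428I22Rik higher with cDNA (log2 difference 2.06, adjusted p = 0.0020) and DESeq2 did not (1.48, adjusted p = 0.119). Without knowledge of the strand, cDNA reads of this pair of genes cannot be assigned with certainty to one or the other.

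**Figure D2:**
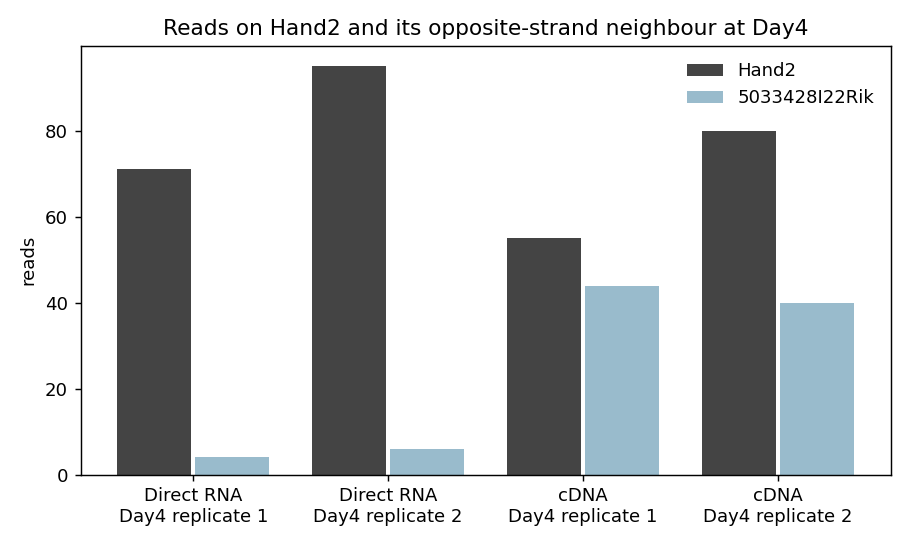
Reads on Hand2 and on its opposite-strand neighbour 5033428I22Rik (Hand2os1) in the 4 Day4 libraries. With Direct RNA the neighbour had 4 and 6 reads beside 71 and 95 on Hand2, and with cDNA 44 and 40 beside 55 and 80.

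Of the T-box genes beside T, Tbx5, which patterns the left ventricle, atria and forelimb (ENSMUSG00000018263.11, chr5:119832668-119885219, forward strand), had no read in the 4 Undiff libraries. It had 11 reads in each Day4 library with Direct RNA, or 38.8 and 14.9 CPM, and 22 and 42 reads with cDNA, or 16.7 and 20.2 CPM. The groups did not overlap on either platform, and Tbx5 was at least 9.02-fold higher at Day4 with Direct RNA and at least 19.1-fold higher with cDNA. The DESeq2 log2 fold change was 4.37 ± 1.29 (SE; adjusted p = 0.010) and 5.19 ± 1.27 (SE; adjusted p = 0.00091). Its Direct RNA call was lost when any 1 of the 4 libraries was left out (adjusted p from 0.104 to 0.476), and its cDNA call without Undiff replicate 2 (0.103) or Day4 replicate 2 (0.0967). In such fits the lone sample of a state is assumed to vary like the other state.

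Tbx20, which acts in chamber myocardium and valves (ENSMUSG00000031965.15, chr9:24718138-24774303, reverse strand), stayed between 0 and 3 reads in all 8 libraries. With Direct RNA it had 1 and 2 reads in Undiff and 2 and 3 at Day4, and with cDNA 1 and 0 in Undiff and 1 and 2 at Day4. The pooled Day4 to Undiff ratio was 2.05 with Direct RNA, with an exact 95% interval from 0.399 to 13.2, and 2.68 with cDNA, from 0.215 to 141. A change of Tbx20 was not detectable at this depth.

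Mef2c, a MADS-box factor of the heart fields, muscle and endothelium (ENSMUSG00000005583.16, chr13:83504034-83667080, forward strand), had 0 reads in both Undiff libraries with Direct RNA and 0 and 1 with cDNA. At Day4 it had 4 and 6 reads with Direct RNA, or 14.1 and 8.13 CPM, and 19 and 46 with cDNA, or 14.4 and 22.1 CPM. Day4 lay above Undiff on both platforms. With cDNA it was called higher (log2 fold change 4.38 ± 1.18 SE; adjusted p = 0.0035, DESeq2), and the pooled ratio was 58.1 with an exact interval from 10.1 to 2331. After thinning to the smallest library Mef2c was no longer called with cDNA (2.64, adjusted p = 0.520, medians of the draws). By pooled Direct RNA reads it was higher by a factor of at least 4.1 but was not called (3.0 ± 1.41 SE; adjusted p = 0.179), and its mean normalized count of 2.66 was under the minimum of 5. By edgeR its Direct RNA log2 fold change was 5.51 (adjusted p = 0.0198), and only that minimum kept it from being called. The cDNA call was lost without Undiff replicate 2 (adjusted p = 0.109), Day4 replicate 1 (0.0738) or Day4 replicate 2 (0.267).

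Isl1, a LIM-homeodomain factor of second heart field progenitors and of motor neurons (ENSMUSG00000042258.13, chr13:116298281-116309689, reverse strand), was read in both states. It had 1 and 2 reads in Undiff and 0 and 6 at Day4 with Direct RNA, so that the groups overlapped. With cDNA it had 0 and 3 reads in Undiff and 8 and 43 at Day4, or 6.07 and 20.7 CPM at Day4, and the groups did not overlap. The pooled ratio was 2.46 (exact interval 0.525 to 15.2) with Direct RNA and 15.2 (4.92 to 76.2) with cDNA. DESeq2 with the study's settings did not call Isl1 on either platform (log2 fold change 0.44, adjusted p = 0.930 with Direct RNA; 2.99 ± 1.15 SE, adjusted p = 0.0736 with cDNA). It was called with cDNA by edgeR (log2 fold change 3.45, adjusted p = 0.00020), and by DESeq2 with Cook's cutoff and independent filtering on (adjusted p = 0.0493) or with genes of at least 10 reads alone (0.0427).

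Osr1, a zinc finger factor needed for kidney and heart septum formation (ENSMUSG00000048387.8, chr12:9570116-9581500, forward strand), had no read in Undiff. At Day4 it had 1 and 18 reads with Direct RNA, or 3.53 and 24.4 CPM, and 9 and 36 with cDNA, or 6.83 and 17.3 CPM. By pooled reads the Day4 level was at least 7.79-fold higher with Direct RNA and at least 13.4-fold higher with cDNA. The cDNA change was called by DESeq2 (log2 fold change 4.51 ± 1.33 SE; adjusted p = 0.0099), and the call was lost when any 1 of the 4 libraries was left out (adjusted p from 0.0589 to 0.630). After thinning to the smallest library the cDNA change was 2.19 (adjusted p = 0.766, medians of the draws) and was not called. The Direct RNA change was not called (3.36 ± 1.39 SE; adjusted p = 0.107; mean normalized count 3.38). By edgeR it was 6.19 (adjusted p = 0.00055), and only the minimum mean count of 5 kept Osr1 from being called. Foxf2, a forkhead factor of gut and palate mesenchyme (ENSMUSG00000038402.2, chr13:31625816-31631403, forward strand), had 0 and 5 reads at Day4 with Direct RNA and 0 and 1 with cDNA, and none in Undiff.

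Hand1, the left ventricular and trophoblast counterpart of Hand2 (ENSMUSG00000037335.13, chr11:57828705-57832818, reverse strand), was the factor with most Undiff reads. It had 1 and 8 reads in Undiff and 0 and 2 at Day4 with Direct RNA, and 3 and 4 in Undiff and 1 and 3 at Day4 with cDNA. Undiff lay above Day4 in CPM on both platforms, but the pooled ratios of 0.273 (exact interval 0.0287 to 1.32) and 0.511 (0.110 to 2.01) both had intervals that include 1, and no call was made (adjusted p = 0.784 and 0.824, DESeq2). Nkx2-5, a homeobox factor of cardiac progenitors (ENSMUSG00000015579.5, chr17:26838664-26845009, reverse strand), had 3 reads in all, 0 and 2 in Undiff and 0 and 1 at Day4 with Direct RNA, and none with cDNA. T (Brachyury), a T-box factor of the streak and notochord (ENSMUSG00000062327.10, chr17:8434423-8442496, forward strand), had 1 read in Undiff replicate 2 on each platform and none at Day4. For Nkx2-5, Foxf2 and T the numbers of reads were too few to show a change in either direction.

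In all, DESeq2 called 2 of the 10 factors higher at Day4 with Direct RNA (Hand2 and Tbx5), where 5.95% of the 15451 genes tested were called higher. With cDNA it called 4 (Hand2, Tbx5, Mef2c and Osr1), where 5.36% of 16669 were. Hand2 and Tbx5 were called on both platforms, as were 3.13% of the 17267 genes with a read. edgeR called 2 with Direct RNA against 11.7% of all genes and 5 with cDNA against 10.5%, the additional one being Isl1. None was called lower by either tool on either platform. With an unadjusted threshold of 0.05 neither DESeq2 nor edgeR gave any factor a fall on either platform. Only 2 factors with Direct RNA and 5 with cDNA reached a mean normalized count of 5. The median log2 fold change was 0.94 over the 10 factors with Direct RNA and 2.99 over the 9 with a read with cDNA, beside 0.06 and 0.04 over all genes. Day4 lay wholly above Undiff for 5 of 10 factors with Direct RNA, where 31.9% of genes with a read did so, and for 5 of 9 with cDNA, where 36.9% did. It lay wholly below for 1 factor, Hand1, on each platform, beside 25.1% and 19.6% of genes.

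**Figure D3:**
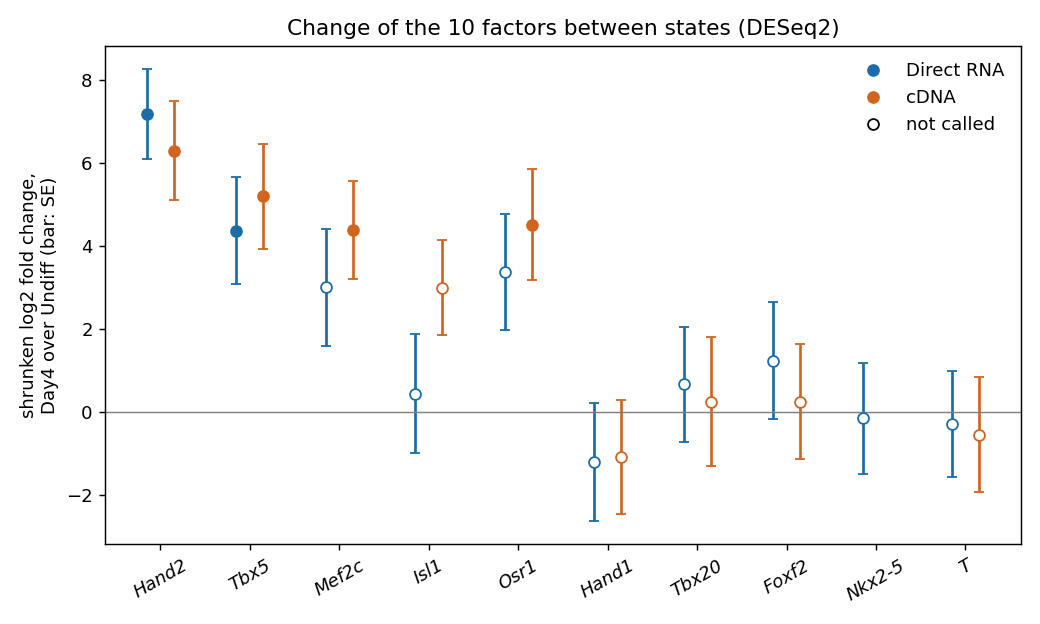
Shrunken DESeq2 log2 fold changes, Day4 over Undiff, of the 10 factors with their SE, by platform. Filled points were called (adjusted p at most 0.05, change at least 1 in size and mean count at least 5); Nkx2-5 had no cDNA read and has no point for that platform.

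To ask whether platforms differed in what they showed of these genes, levels were compared in a fit of all 8 libraries that also held the state. Hand2 was the only factor called by DESeq2, lower with cDNA by a log2 difference of -1.45 ± 0.48 (SE; adjusted p = 0.0080), on a background of 30.9% of genes called in either direction. These differences are relative to DESeq2 size factors, which put the median gene near no difference (-0.018). Scaled by read totals, as CPM are, the median gene was lower with cDNA by -0.72, so that directions between platforms depend on the scaling. The calls over all genes were 2572 higher and 2772 lower with cDNA by size factors, and 1132 and 4394 by read totals, a scaling chosen after seeing the data. Hand2 was called lower with cDNA by both (-2.10 and adjusted p = 2.5e-05 by read totals). The size factor call was lost without Direct RNA Day4 replicate 1 (adjusted p = 0.278) or cDNA Day4 replicate 2 (0.116). Reads that fell on more than 1 gene and were given to none were 7.65 to 8.45% of genic reads with cDNA and 2.16 to 2.33% with Direct RNA, and their part in the Hand2 difference was not tested. Mef2c was at 11.1 ± 4.23 CPM at Day4 with Direct RNA and 18.3 ± 5.47 CPM with cDNA (SD, n = 2). Its fitted log2 difference was 1.21 ± 0.74 (SE) by size factors, which DESeq2 did not call (adjusted p = 0.220) and edgeR did (1.60, adjusted p = 0.026), and 0.62 by read totals (0.650). For Tbx5, Osr1 and Isl1 the log2 differences were 0.11 ± 0.69, 0.12 ± 0.90 and 0.91 ± 0.85 (SE) by size factors and -0.50, -0.41 and 0.36 by read totals, none of which was called. Tbx5 and Osr1 thus changed direction with the scaling.

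A change between states that differed by platform was called for none of the 10 factors by DESeq2 or edgeR, and none had an unadjusted p under 0.05 with either tool. Such a call was also rare among all genes, at 0.0116% of 17267 with DESeq2. The interaction of Isl1 was 2.78 ± 2.41 on the log2 scale (SE; unadjusted p = 0.249, adjusted p = 1.00), and that of Hand2 was -1.12 ± 2.20. With errors of this size, the calls of Mef2c and Osr1 with cDNA and not with Direct RNA were not shown to differ between platforms.

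**Figure D4:**
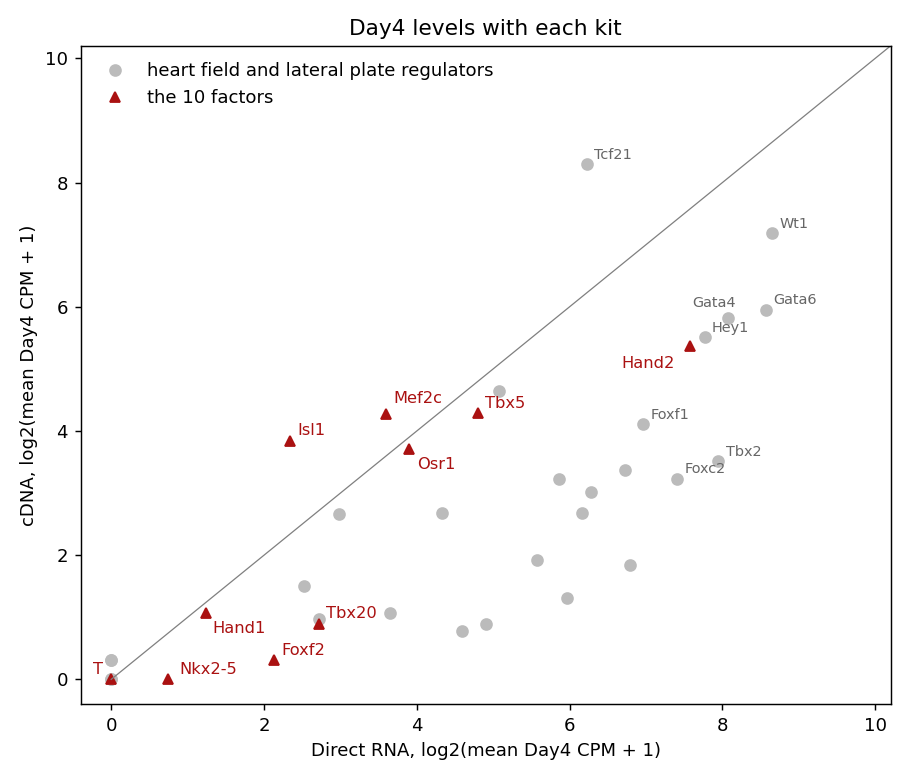
Mean Day4 level of the 10 factors (triangles) and of 27 other heart field and lateral plate regulators (circles) as log2(mean CPM + 1), Direct RNA on the horizontal and cDNA on the vertical axis, with the line of equal level. Isl1 and Mef2c lie above the line, and Hand2, Tbx5, Osr1, Tbx20, Foxf2, Hand1 and Nkx2-5 lie below it on this scale of read totals.

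Per kilobase of the longest transcript, the order of the Day4 levels was led by Hand2 on both platforms, at 80.7 ± 36.6 CPM per kb with Direct RNA and 17.1 ± 0.966 with cDNA (SD, n = 2). With Direct RNA, Osr1 followed at 6.94 ± 7.34, Tbx5 at 6.81 ± 4.29, Mef2c at 1.77 ± 0.673 and Isl1 at 1.62 ± 2.29 CPM per kb. With cDNA the values were 6.00 ± 3.69 for Osr1, 5.32 ± 4.11 for Isl1, 4.68 ± 0.633 for Tbx5 and 2.91 ± 0.871 for Mef2c. Hand2 was above each of these in every Day4 library. Long reads can cover a full transcript, as the study states, and whether counts grew with transcript length was not tested. In CPM, with no division by length, the order after Hand2 was Tbx5 (26.9), Osr1 (14.0), Mef2c (11.1) and Isl1 (4.07) with Direct RNA and Tbx5 (18.5), Mef2c (18.3), Isl1 (13.4) and Osr1 (12.1) with cDNA. Per kilobase, the ranges of Osr1 and Tbx5 overlapped with each other on both platforms, as did those of Mef2c and Isl1. Tbx20, Hand1, Nkx2-5, Foxf2 and T had means between 0 and 1.43 CPM per kb at Day4.

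The Day4 libraries of a platform varied in several of the factors. Isl1 was higher in replicate 2 on both platforms, at 0 against 8.13 CPM with Direct RNA and 6.07 against 20.7 with cDNA. Osr1 also was, at 3.53 against 24.4 CPM and 6.83 against 17.3. Hand2 was lower in replicate 2, at 250.5 against 129 CPM with Direct RNA and 41.7 against 38.5 with cDNA. The summed pluripotency genes were higher in replicate 2 as well, at 116 against 525 CPM with Direct RNA and 85.0 against 923 with cDNA, and replicate 2 was the deeper library on both platforms. Tbx5 and Mef2c ran opposite ways between platforms. Replicate 2 was lower with Direct RNA (38.8 against 14.9 CPM for Tbx5 and 14.1 against 8.13 for Mef2c). With cDNA it was higher (16.7 against 20.2 and 14.4 against 22.1 CPM). The numbers do not show that libraries of the 2 platforms with the same number came from the same culture. With 1 library of each kind these differences have no test, and the part of the remaining pluripotent signal or of depth in them was not tested.

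The wider mesoderm program was read from lists of other genes. Of 27 heart field and lateral plate regulators, 15 were called higher and none lower with Direct RNA, and 8 were called higher and none lower with cDNA (DESeq2), beside 5.95% and 5.36% of all genes called higher. edgeR called 16 higher and 1 lower with Direct RNA and 9 higher with cDNA, beside 11.7% and 10.5% of all genes called higher. These 8 were called on both platforms, namely Gata4, Gata6, Tbx2, Foxf1, Foxc2, Hey1, Tcf21 and Wt1. Gata4, a zinc finger partner of Tbx5 and Nkx2-5, had 1 and 2 reads in Undiff and 99 and 139 at Day4 with Direct RNA, and 0 and 1 against 78 and 107 with cDNA. Gata6, its relative in cardiac and endoderm cells, had none in Undiff and 121 and 245 reads at Day4 with Direct RNA, and 62 and 155 with cDNA. Its log2 fold changes were 8.13 ± 1.04 and 6.83 ± 1.16 (SE; adjusted p = 1.3e-12 and 2.6e-07, DESeq2). Tcf21, a factor of epicardium and visceral mesoderm, had 17 and 65 Day4 reads with Direct RNA and 411 and 654 with cDNA, beside 1 read in the Undiff libraries. Tbx2, a T-box repressor of chamber genes, had 82 and 149 Day4 reads with Direct RNA and 11 and 26 with cDNA, and none in Undiff. All 4 of these genes had every Day4 library above every Undiff library. The list's median log2 fold change was 3.79 with Direct RNA and 2.19 with cDNA. Without Undiff replicate 2 the calls fell to 9 with Direct RNA and 4 with cDNA, and without either Day4 replicate the cDNA calls were 5.

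Of 18 primitive streak and early mesoderm genes, 2 were called higher on each platform and none lower, where 5.95% and 5.36% of all genes were called higher. Only 3 of the 18 with Direct RNA and 7 with cDNA reached the mean count of 5 that a call needs, against 19 and 12 of the 27 heart field regulators. edgeR called 3 and 4 higher, where 11.7% and 10.5% of all genes were called higher. Without Undiff replicate 2 the DESeq2 calls fell to 0 on each platform, without Day4 replicate 2 to 0 with Direct RNA and 1 with cDNA, and without cDNA Day4 replicate 1 to 1. Pdgfra, a growth factor receptor of mesoderm and mesenchyme, was called on both, with 7 and 46 Day4 reads with Direct RNA and 9 and 66 with cDNA beside 1 read in Undiff. Kdr, a receptor of vascular and cardiac progenitors, was called with Direct RNA (log2 fold change 4.40, 11 and 41 Day4 reads) and Lhx1, a factor of intermediate and early mesoderm, with cDNA (5.23, 30 and 31 Day4 reads). Mixl1 and Mesp1, which like T mark the streak and nascent mesoderm, were not called on either platform. Among 15 paraxial and intermediate mesoderm regulators, none was called higher and 2 lower with Direct RNA, and 2 higher and 1 lower with cDNA. The 2 higher were Meox1 (log2 fold change 3.98) and Hoxb1 (5.52), a gene of the HoxB cluster. Of all genes, DESeq2 called 4.79% lower with Direct RNA, and 5.36% higher and 5.69% lower with cDNA. The 2 lower fell to 1 without replicate 2 of either Direct RNA state, and the 2 higher to 1 without any 1 of the cDNA libraries. Sall1, a zinc finger gene of kidney mesenchyme that ESCs also express, was called lower on both (34 and 108 Undiff against 5 and 5 Day4 Direct RNA reads).

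Of 21 relatives of the 10 factors by gene family, 3 were called higher on each platform and none lower by DESeq2 (beside 5.95% and 5.36% of all genes called higher). By edgeR 5 were called higher with Direct RNA, beside 11.7% of all genes. With cDNA edgeR called 3 higher and 1 lower, beside 10.5% and 9.59%. The cDNA count fell to 0 without Day4 replicate 2, to 1 without Undiff replicate 2 and to 2 without either other library. The DESeq2 calls were the same 3 genes, Foxf1, the closest relative of Foxf2, and Twist1 and Twist2, genes of mesenchyme that encode basic helix-loop-helix factors, as the Hand genes do. Foxf1 is also among the 8 heart field calls above. T-box and forkhead genes held in the other lists alone were not counted here. Among those of the heart field list, Tbx2 and Foxc2 were called higher on both platforms, and Tbx1, Tbx3 and Tbx18 on neither. Foxf1 had 26 and 115 Day4 reads with Direct RNA and 13 and 47 with cDNA, whereas Foxf2 had at most 5 in any library. Twist1 had 72 and 279 Day4 reads with Direct RNA and 50 and 224 with cDNA. Mef2a and Mef2d were not called on either platform, with log2 fold changes between 0.47 and 1.58, and Mef2b had no read in any of the 8 libraries.

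**Figure D5:**
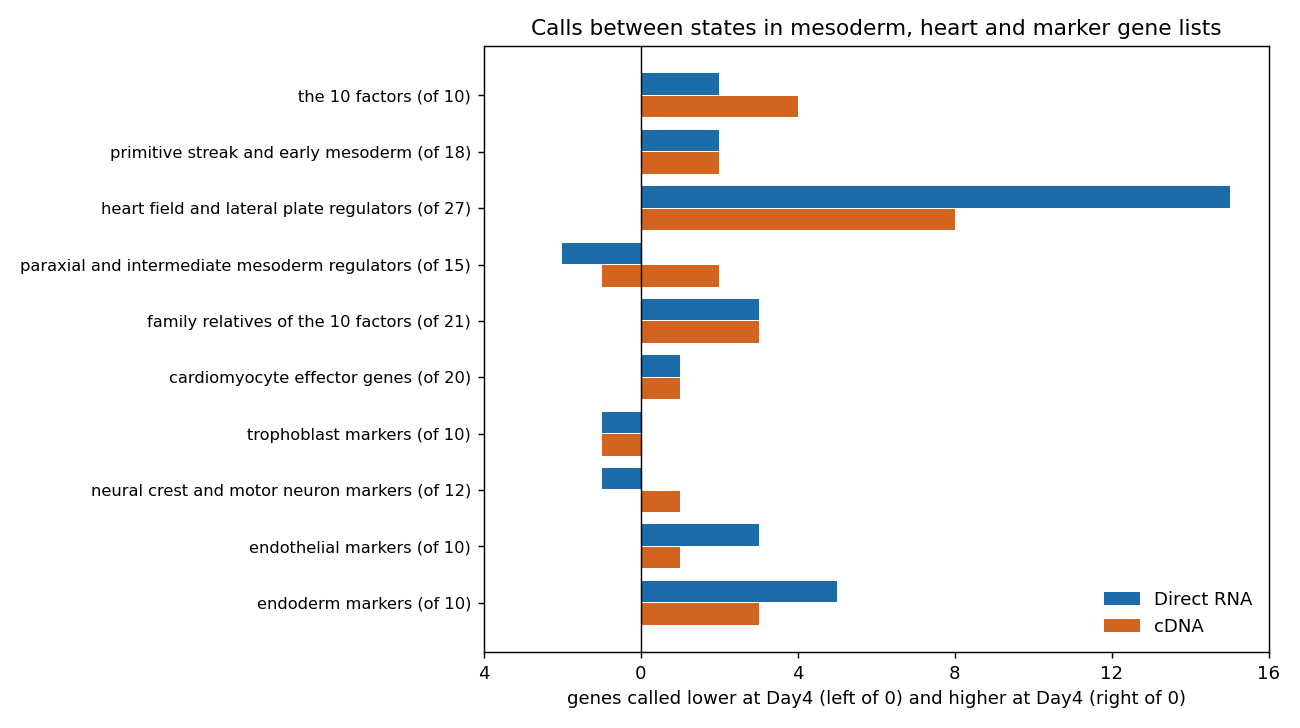
Number of genes called by DESeq2 as lower (left of 0) or higher (right of 0) at Day4 in each gene list, by platform, with the size of the list in brackets. Heart field and lateral plate regulators had 15 and 8 calls higher, of 19 and 12 genes with the mean count of 5 that a call needs; for cardiomyocyte effector genes it was 1 and 1, of 4 and 9.

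Markers of cell types in which the 10 factors also act were read beside them. Of 20 cardiomyocyte effector genes, 4 with Direct RNA and 9 with cDNA reached a mean count of 5, and 1 was called higher on each platform, a share near the 5.95% and 5.36% of all genes. It was Tnni1, the slow skeletal troponin I of embryonic heart, with 22 and 44 Day4 reads with Direct RNA and 128 and 112 with cDNA. Its Direct RNA call was lost without Undiff replicate 2 or either Day4 replicate. Summed, the cardiomyocyte list was at 393 and 418 CPM in Undiff and 406 and 353 CPM at Day4 with Direct RNA, and at 120 and 84.3 against 284 and 177 CPM with cDNA, where the groups did not overlap. Most of the Direct RNA sum came from Atp2a2, the calcium pump SERCA2, which many cell types express (336 and 375 CPM in Undiff, 254 and 206 CPM at Day4, not called). With Atp2a2 left out for that reason, the other 19 genes did not overlap with Direct RNA either. They summed to 57.4 and 43.0 CPM in Undiff and 152 and 146 CPM at Day4. Tnni1 was at 6.51 CPM in Undiff and 68.6 at Day4 with Direct RNA, and at 3.21 and 75.5 with cDNA. The median log2 fold change of the list was 0.10 with Direct RNA and -0.38 with cDNA, beside 0.06 and 0.04 over all genes, and Myl2, a ventricular myosin light chain, had 5 and 6 Undiff and no Day4 reads with cDNA and no call. Myl7 and Myl4, atrial and embryonic myosin light chains, had 128 and 59 and 54 and 58 Day4 cDNA reads beside 47 and 46 and 13 and 7 in Undiff and were not called by DESeq2. With cDNA edgeR called 2 genes of the list higher, a share near the 10.5% of all genes. Nppa had no read in any library, and Tnnt2, cardiac troponin T, had between 2 and 8 Day4 reads and no call. The 12 neural crest and motor neuron markers summed to 54.5 and 47.4 CPM in Undiff against 42.3 and 29.8 CPM at Day4 with Direct RNA, and to 2.11 and 4.79 against 61.4 and 110 CPM with cDNA. Foxd3, which ESCs also express, made up most of the Direct RNA Undiff sum (12 and 37 reads, and none at Day4). With Foxd3 left out for that reason, the direction turned. The other 11 summed to 20.1 and 6.61 CPM in Undiff and 42.3 and 29.8 CPM at Day4 with Direct RNA, with no overlap. With cDNA, Ednrb made up most of the Day4 sum, at a mean of 71.0 CPM. There was 1 call lower with Direct RNA (Foxd3), lost without replicate 2 of either state, where 4.79% of all genes were called lower. With cDNA there was 1 higher (Ednrb, log2 fold change 7.02, and 3.58 without a call with Direct RNA), where 5.36% of all genes were called higher. Olig2 had no read in any library. Endothelial markers had 3 of 10 called higher with Direct RNA, a count that fell to 0 without replicate 2 of either state, and 1 with cDNA, where 5.95% and 5.36% of all genes were called higher. Their sums were 129 and 78.2 CPM in Undiff against 212 and 304 CPM at Day4 with Direct RNA, and 33.7 and 35.9 against 88.0 and 108 CPM with cDNA, with no overlap on either platform. edgeR called 4 higher and 1 lower with Direct RNA, beside 11.7% and 9.42% of all genes, and 2 higher with cDNA, beside 10.5%. The 3 called by DESeq2 with Direct RNA were Kdr, Tie1 and Emcn, and Kdr is also counted in the primitive streak and early mesoderm list. Emcn, an endothelial surface sialomucin, was called on both platforms, whereas Pecam1, an endothelial adhesion molecule that ESCs also express, had log2 fold changes of -1.29 and -0.77 and no call by DESeq2. Endoderm markers, a list that also holds Gata4 and Gata6, had 5 of 10 and 3 of 10 called higher, beside the same shares of all genes (6 with cDNA by edgeR, and 3 with Direct RNA without Undiff replicate 2), with sums between 0.958 and 14.3 CPM in Undiff and between 285 and 1023 CPM at Day4. Trophoblast markers, a list that holds Hand1, had 1 of 10 called lower on each platform (Tfap2c with Direct RNA, Ascl2 with cDNA, both lost without Undiff replicate 2), beside 4.79% and 5.69% of all genes called lower, and 2 by edgeR, beside 9.42% and 9.59%, with sums between 75.9 and 223 CPM in Undiff and between 10.6 and 34.2 CPM at Day4. Tfap2c and Ascl2 made up most of the trophoblast sums in Undiff, at means of 113 and 21.3 CPM with Direct RNA and 107 and 33.2 CPM with cDNA. Elf5, Gcm1, Prl3d1 and Prl2c2 had at most 3 reads in any library. Tpbpa went the other way without a call, with no Undiff read and 1 and 5 Day4 reads with Direct RNA and 3 and 15 with cDNA. The part of these cell types in the levels of the 10 factors was not tested.

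For the 5 factors with at least 50 reads over the 8 libraries, the genes with the most similar pattern were found by Pearson's r of log2(CPM + 1) over the 8 libraries among 10118 genes. These values are a description, since the 8 points share state, platform and culture. Hand2 was most like Col3a1 (r = 0.9997), Cyp1b1 (0.9989) and Col1a2 (0.9984), of which Col3a1 and Col1a2 encode fibrillar collagens. Col3a1 had no Undiff read and 525 and 625 Day4 reads with Direct RNA and 179 and 314 with cDNA, so that like Hand2 it had a lower mean level with cDNA (143 CPM) than with Direct RNA (1350 CPM). Tbx5 was most like Wisp1, Kcnmb2 and Tgfb3, a ligand of the TGF-beta family (r from 0.995 to 0.996). Mef2c was most like Colec11, Nr2f2, a nuclear receptor of venous and mesenchymal cells, and Laptm4a (r from 0.994 to 0.995). Osr1 was most like Inha, Ntf3, a neurotrophin, and Nepn (r from 0.981 to 0.988), each of which had more Day4 reads in replicate 2 than in replicate 1. Isl1 had the least similar neighbours, Ccndbp1, Cpm and 1600014C10Rik (r from 0.95 to 0.966), all of which were read in both states.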

How the data were processed

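The authors deposited unnormalized counts of reads for each gene symbol, from htseq-count (HTSeq) run on minimap2 alignments to mm10 with the iGenomes UCSC annotation. Direct RNA was counted by strand. Mean levels are mean ± SD of CPM, computed here. The 5 counters of reads given to no gene, between 38.1% and 61.7% of each file, were left out.

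Each platform was tested with DESeq2 1.42.0 (R 4.3.3) on all genes, with the Wald test, shrunken changes and Cook's cutoff and independent filtering off, after the study's methods. Calls needed a Benjamini-Hochberg adjusted p of at most 0.05 over all genes, a log2 fold change of at least 1 and a mean of at least 5 normalized counts. The interaction used adjusted p alone. edgeR 4.0.16 (quasi-likelihood, TMM) was the alternative, with other scaling, filters, thinning to the smallest library over 10 draws, a replicate block and leaving out each library. Where edgeR is not named, an adjusted p is that of DESeq2.

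The members and lists were chosen with earlier results of these data known. From each list, up to 4 genes called on both platforms by size of change were named, together with the 3 nearest patterns, and list genes outside this rule were chosen after their values were seen. A further regulator is not reported here and was left out of its list. The methods state that replicates were grown and treated separately, and both kits drew on the same RNA, so platforms are not independent samples. No replicate pair agreed within sampling noise (chi-square per degree of freedom 2.68 to 14.9). Intervals are exact at 95% and, like floors, cover counting error only, since PCR copies are not independent molecules. Fits were tested on simulated data. Coordinates are from GENCODE on GRCm38 and promoters from RefSeq.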

Additional observations from a re-analysis of the deposited data

How the results depend on the processing

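The factors called higher at Day4 with Direct RNA numbered 2, and 1 after thinning all libraries to the depth of the smallest. Leaving out any library gave 1 to 1, with Hand2 called in each of the 4 fits. With cDNA they numbered 4, with 5 (Isl1 added) under edgeR, under Cook's cutoff and independent filtering and with genes of at least 10 reads alone, 0 after thinning and 1 to 3 on leaving out a library; Hand2 was called in each of the 4 fits. Between platforms, 1 factor was higher with cDNA under edgeR and under edgeR with the block (Mef2c), and 0 to 1 lower on leaving out a library.

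Same-numbered replicates deviated together between states (r = 0.214 with Direct RNA and 0.50 with cDNA), but with 2 pairs they share only a number. The replicate block in DESeq2 left 0 calls with Direct RNA and 2 with cDNA, and among heart field regulators 7 calls in place of 15 with Direct RNA and 5 in place of 8 with cDNA. Under it the dispersion of Hand2 rose from 0.127 to 6.69 with Direct RNA and from 0.228 to 6.69 with cDNA, and its log2 change became 1.66 (adjusted p = 0.833) and 1.74 (0.735). In edgeR the block, chosen after seeing the data, gave 9.49 and 8.85 and the 2 and 5 calls of edgeR without it. At Day4 the numbers ran against each other between platforms (r = -0.42), and crossing them there, also chosen after seeing the data, left 1 factor called lower and 0 higher, the counts without a block.

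Changes that turned sign were all of uncalled results, and the cause was not tested. Between states they included Isl1 with Direct RNA (-0.018 thinned, -0.52 to 0.83 on leaving out a library), Nkx2-5 with Direct RNA (-0.39 to 0.17) and Tbx20 with cDNA (-0.41 thinned, -0.30 to 0.86). For the interaction, among the 5 factors with at least 50 reads, they were Tbx5 (-0.55 thinned, -0.13 to 1.37), Mef2c (-0.66 in edgeR, -0.63 with its block, -0.12 to 1.16) and Osr1 (-0.20 thinned). Between platforms, among the same 5, they were Tbx5 (-0.26 to 0.65, -0.50 by read totals) and Osr1 (-0.39 to 1.09, -0.41 by read totals). Of the factors with fewer reads, Hand1 (-0.69 to 1.83), Tbx20 (-1.81 to 2.03) and Nkx2-5 (-1.39 to 0.77) also turned in the interaction and Hand1 (-0.52 to 0.24) between platforms on leaving out a library.

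Over all genes, calls higher at Day4 were 920 with Direct RNA and 893 with cDNA, against 1802 and 1749 in edgeR, 554 and 234 after thinning, 455 with the Direct RNA block, and 262 to 457 and 327 to 567 on leaving out a library. Depth limits 5 of the factors, which had at most 8 reads in any library.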
